A study of Drosophila melanogaster with 6 samples.

Results

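Autophagy is the process by which a cell wraps part of its cytoplasm in a double membrane and delivers it to the lysosome. The Atg genes encode the machinery that starts, extends and seals that membrane, and the Vps (vacuolar protein sorting) genes encode complexes that carry cargo and membrane between the Golgi, endosomes and lysosomes. Long-lived muscle fibres depend on both routes to renew organelles and contractile proteins, and the larval muscles of Drosophila melanogaster are an established place to study them. The 51 genes examined here, out of 13517 in the deposited table, were the 20 whose symbols begin with Atg and a number, the 27 that begin with Vps and a number, and ref(2)P, Lamp1, Rab7 and Mitf. All 51 also reached the minimum mean of 10 scaled counts over the 6 samples, and they formed part of the 11720 genes that were tested. Subunits that Drosophila knows by other names, such as dor or scat, were not selected by this naming and are described separately.

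RNA was sequenced from muscle-enriched lysates of larvae near the end of larval life, with 7 to 10 larvae pooled per sample and 3 samples per group. In the tsr knockdown group (genotype Mhc-Gal4>UAS-twinstarRNAi), an RNA interference construct was directed against twinstar (tsr), the gene for the actin-severing protein cofilin. In the control knockdown group (Mhc-Gal4>UAS-mCherryRNAi) the construct was directed against mCherry, a fluorescent protein gene that flies lack. Both groups carried the Mhc-Gal4 driver, which acts in muscle, and the lysates also held transcripts of other tissues. The tissue label names adult body wall, whereas the growth protocol and design text name larvae. The labels number the samples as biological replicates without saying more about their origin, and p-values measure the spread between these pools.

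The unit throughout is the scaled count, which the values show to be a read count per gene times a constant for the sample. The level of tsr was 6966, 7070 and 5035 scaled counts in tsr knockdown replicates 1 to 3, against 39133, 29266 and 25816 in control replicates 1 to 3, so the mean of the tsr knockdown samples was 20.2% of the control mean. No two-sided exact permutation p-value below 0.1 is possible with 3 samples against 3, and tsr reached it (p = 0.1). Reads assigned to genes, as recovered from the scaled counts, numbered 37375802 to 40714608 per tsr knockdown sample and 37138289 to 41900871 per control sample. Control replicate 2 stood apart from control replicates 1 and 3 on the first principal component, which held 58.7% of the variance over all tested genes. Scores on this component were -150, 108 and -116 for control replicates 1 to 3 and 74.3, 54.1 and 28.8 for tsr knockdown replicates 1 to 3. The component thus did not separate the groups, and control replicate 2 lay on the side of the tsr knockdown samples and beyond them. On the second component (25.6% of the variance) the groups were apart. Its scores were 41.5, 58.5 and 61.9 for tsr knockdown replicates 1 to 3 and -5.17, -120 and -36.4 for control replicates 1 to 3. There control replicate 2 was the sample farthest from the tsr knockdown. The lysates also differed in other transcripts. The myosin gene Mhc, which marks muscle, was at 1095026 to 1557535 scaled counts in tsr knockdown samples and 557851 to 923059 in controls. All 12 muscle genes examined had positive fold changes (1 called, Act87E), and their summed level ran from 6016455 to 8540067 scaled counts in tsr knockdown samples and from 3296348 to 4939787 in controls. The sum of 17 genes of the ecdysone response, the steroid hormone response that times the larval to pupal transition, ran from 32407 to 39933 in tsr knockdown samples and from 80627 to 119446 in controls (6 called lower and 1 higher). For 8 epidermal and tracheal genes the range was 1408989 to 2240037 in tsr knockdown samples and 4226715 to 5068530 in controls, with Cpr49Aa at 0 in 5 of the 6 samples (3 called lower). For 8 neuronal genes it was 14096 to 16265 in tsr knockdown samples and 3548 to 6213 in controls (2 called higher). The summed ranges overlapped for the other 4 lists. Fat body genes summed to 1146355 to 1464091 in tsr knockdown samples and 641061 to 1428896 in controls, and of 8 genes Lsp1gamma was called higher and Fbp1 lower, at 2.07% of the control mean. Blood cell genes summed to 60183 to 87263 in tsr knockdown samples and 62091 to 68794 in controls, and of 7 genes He and eater were called lower, at 58.1% and 53.2% of the control mean. Gut genes summed to 62.8 to 792 in tsr knockdown samples and 98.7 to 398 in controls, with Jon65Ai at 0 in control replicate 3. Salivary gland genes summed to 22.9 to 10468 in tsr knockdown samples and 31.6 to 103419 in controls, and no gene of these last lists was called by limma (1 gut gene had an unadjusted p-value under 0.05). In these bulk lysates fewer cells of a type and less RNA per cell cannot be told apart. The part that these differences in composition and stage play in the values below was not tested.

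In the tsr knockdown, 6 of the 51 genes fell and none rose. Those that fell were Atg9, Lamp1, the retromer genes Vps35 and Vps26, Vps45 and Vps60, with tsr knockdown means between 49.0% and 71.2% of the control means. These 6 made up 11.8% of the 51 genes. By limma on log2(scaled count + 1), with Benjamini-Hochberg adjustment over all 11720 genes and a threshold of 0.05, 7.02% of all tested genes were lower and 4.58% were higher, and 11.6% were called in either direction. The share of the 51 called in either direction was thus close to the background, and the share called lower was above it. No gene of the 51 was called higher by limma or by edgeR with TMM scaling, which called 7 lower (6.65% of all tested genes lower and 3.24% higher). By DESeq2, 1 was called higher and 13 lower, against 10.7% and 13.4% of all tested genes. The gene called higher was Atg101, and those called lower were the 6 above with Atg3, Atg4a, Atg5, Atg7, Rab7, Vps16A and Vps29. By limma, 2 (3.92%) had an unadjusted p-value under 0.05 with a positive fold change and 13 (25.5%) with a negative one, against 14.0% and 15.1% of all tested genes. The median log2 fold change of the 51 genes was -0.21, against 0.06 over all tested genes, and 41 of the 51 were below 0, against 5403 of all 11720. The groups did not overlap in 24 of the 51 genes (47.1%), against 36.4% of all tested genes. Of those 24, tsr knockdown samples were the lower in 21 (41.2%, against 19.6% of all tested genes) and the higher in 3 (5.88%, against 16.8%).

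The count of 6 rested on having all samples. It was 0 without tsr knockdown replicate 1, tsr knockdown replicate 2 or control replicate 3, and 3 (Atg9, Vps26 and Vps35) without control replicate 1, where 4.94% of all tested genes were lower. Without tsr knockdown replicate 3 it was 5, namely Atg4a, Atg9, Lamp1, Vps26 and Vps35, against 4.17% of all tested genes. In the 3 fits with a count of 0 the share of all tested genes called lower was also smaller, at 1.23%, 2.23% and 2.14%. Without control replicate 2, 5 were called lower (Atg9, Lamp1, Vps26, Vps35 and Vps45) and Atg8b was called higher, against 7.78% and 19.5% of all tested genes. The median of the 51 genes stayed between -0.23 and -0.16 in all 6 of these fits.

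**Figure D1:**
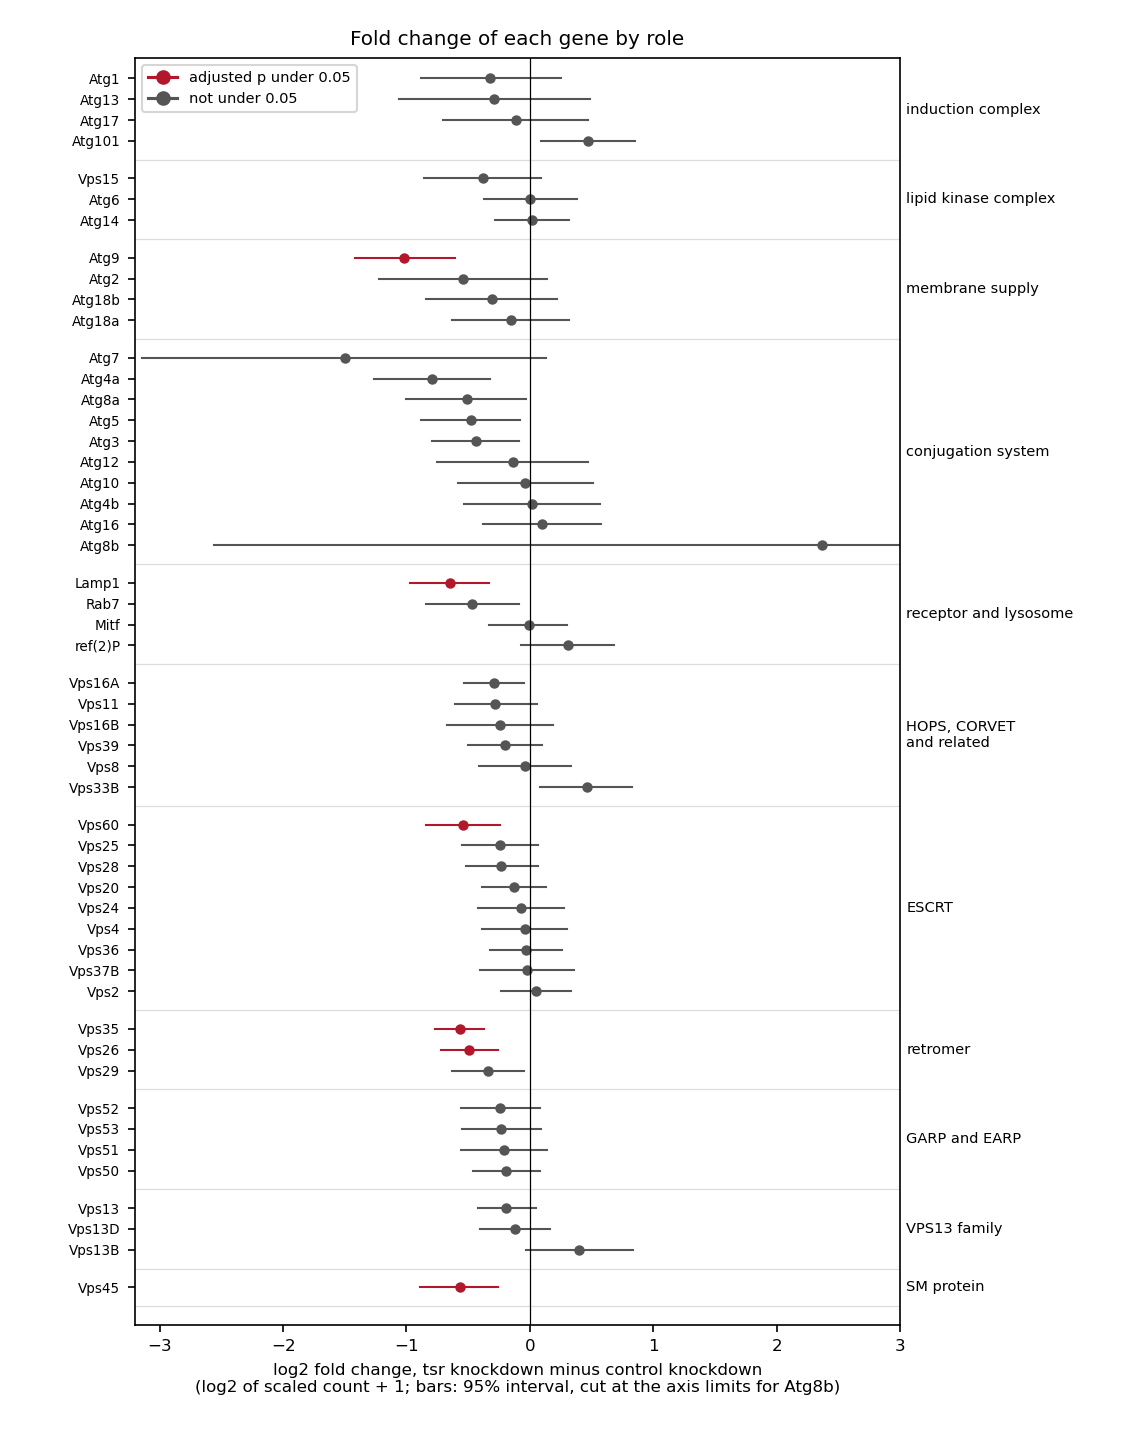
Log2 fold change of each of the 51 genes, tsr knockdown minus control knockdown, on the log2(scaled count + 1) scale, with 95% intervals from limma (n = 3 per group) and genes ordered by fold change within each role. Points in red have an adjusted p-value under 0.05, and all 6 of them lie left of 0, from -1.02 for Atg9 to -0.49 for Vps26.

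Levels were compared between genes per kilobase of annotated exon, using the mean scaled count of each group. Atg8a, the ubiquitin-like protein that is attached to the growing membrane, was the most abundant of the 51 at 11143 scaled counts per kilobase in tsr knockdown samples and 15707 in controls. Lamp1 followed at 5984 in tsr knockdown samples and 9330 in controls, and Rab7 at 3963 in tsr knockdown samples and 5439 in controls. Atg9 stood at 2083 in tsr knockdown samples and 4249 in controls. The autophagy receptor ref(2)P stood at 3946 per kilobase in tsr knockdown samples and 3157 in controls, so it ranked below Atg9 in controls but above it in the tsr knockdown. At the other end, Vps13D, Atg10 and Atg8b had the lowest levels per kilobase, at 116, 111 and 70.5 in tsr knockdown samples and 126, 112 and 106 in controls. The median gene of the 51 stood at the 70.8 percentile of the control level per kilobase of the tested genes with an annotated length.

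Induction of autophagy depends on the kinase Atg1 and its partners Atg13, Atg17 and Atg101. None of these 4 genes passed the test by limma, and 1, Atg101, had an unadjusted p-value under 0.05. Atg1 was at 1358, 1101 and 1473 scaled counts in tsr knockdown replicates 1 to 3, against 1238, 2156 and 1589 in control replicates 1 to 3. The groups overlapped because control replicate 1 lay among the tsr knockdown samples, and the log2 fold change was -0.32 (95% interval -0.88 to 0.25, limma adjusted p = 0.422). Atg13 showed a like pattern, at 1154, 958 and 1254 in tsr knockdown samples against 1045, 2234 and 1082 in controls, where only control replicate 2 was high. Atg101, which binds and stabilises Atg13 in mammals, went the other way. It was at 592, 591 and 757 scaled counts in tsr knockdown samples and 455, 501 and 439 in controls. Each tsr knockdown sample was above each control, and the log2 fold change was 0.47 (95% interval 0.09 to 0.85) with an adjusted p-value of 0.107 by limma, while DESeq2 on the recovered reads placed it under the threshold (adjusted p = 0.0334).

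The lipid kinase complex marks the site where the membrane forms. None of its 3 genes that fit the naming passed the test, and their groups overlapped. The log2 fold change was 0.00 for Atg6 (95% interval -0.37 to 0.38), 0.02 for Atg14 (-0.28 to 0.32) and -0.38 for the regulatory subunit Vps15 (-0.86 to 0.09), with limma adjusted p-values of 0.986, 0.940 and 0.265. None of the 3 had an unadjusted p-value under 0.05. The catalytic subunit, listed as Pi3K59F and known as Vps34, had 795, 739 and 1208 scaled counts in tsr knockdown samples and 675, 758 and 812 in controls, where the groups overlapped (adjusted p = 0.470).

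Growth of the membrane needs Atg9, a transmembrane protein that moves lipid between the leaflets of a membrane, together with the lipid transfer protein Atg2 and the phosphoinositide-binding proteins Atg18a and Atg18b. Atg9 (FBgn0034110, dm6 chromosome 2R from 16294400 to 16297232) had the largest fall of the 51 genes that passed the test. It was at 5440, 5674 and 6588 scaled counts in tsr knockdown samples and at 9610, 12640 and 13866 in controls. All 3 tsr knockdown samples lay well below the lowest control, control replicate 1. The mean was 5901 ± 606 in tsr knockdown samples and 12039 ± 2191 in controls (SD, n = 3 each), which gives -1.02 on the log2 scale (SE 0.17, limma adjusted p = 0.0194). The call was lost without tsr knockdown replicate 1, tsr knockdown replicate 2 or control replicate 3, with fold changes from -1.17 to -0.91 over all 6 such fits. The other 3 genes of this step also had negative fold changes, from -0.54 for Atg2 to -0.15 for Atg18a, and none of them passed the test. Atg2 was at 3994, 3688 and 5409 in tsr knockdown samples and 5192, 9285 and 5106 in controls, with tsr knockdown replicate 3 above control replicates 1 and 3.

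A pair of ubiquitin-like conjugation reactions then attaches Atg8a to lipid. Atg7 is the activating enzyme, Atg3 and Atg10 the conjugating enzymes, Atg5, Atg12 and Atg16 form the ligase, and the proteases Atg4a and Atg4b process Atg8 proteins. None of these 10 genes passed the test by limma, and 4 (Atg3, Atg4a, Atg5 and Atg8a) had an unadjusted p-value under 0.05, all with negative fold changes. Atg4a came nearest to the threshold. It was at 1682, 1730 and 2489 scaled counts in tsr knockdown samples and 2900, 3848 and 3351 in controls, without overlap. The log2 fold change was -0.79 (95% interval -1.26 to -0.32, limma adjusted p = 0.0527). It was called lower in 7 of 12 alternatives on all 6 samples, among them limma with a minimum mean of 50 (0.0454), with TMM scaling (0.0377) and with upper-quartile scaling (0.0491), and the adjusted p-values of the 12 ran from 0.00257 to 0.115. Its paralogue Atg4b was nearly level, at 563 ± 57.6 in tsr knockdown samples and 566 ± 161 in controls (SD, n = 3 each). The ratio of Atg4b to Atg4a per kilobase was thus 0.462, 0.551 and 0.344 in tsr knockdown samples, against 0.235, 0.298 and 0.231 in controls. No ratio of 1 group reached those of the other (two-sided exact permutation p = 0.1). The comparison of paralogues was chosen after their values were seen, and the exons of both genes overlap those of a gene on the opposite strand.

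Atg8a had 17684, 15183 and 23795 scaled counts in tsr knockdown samples and 24422, 30550 and 24899 in controls. All tsr knockdown samples were lower than all controls, but tsr knockdown replicate 3 came close to control replicate 1, and the log2 fold change of -0.51 (SE 0.20) had a limma adjusted p-value of 0.152. For Atg3 and Atg5 the groups were also separate, with log2 fold changes of -0.44 and -0.48 (limma adjusted p = 0.102 and 0.112). DESeq2 called both lower. Atg7 was dominated by the controls' own spread. It was at 399, 489 and 547 in tsr knockdown samples and at 1150, 3784 and 560 in controls, so that control replicate 3 differed little from the tsr knockdown while control replicate 2 was several times higher. Atg8b, the other Atg8 gene, which in flies acts in the testis, was at 64.8, 51.4 and 22.1 in tsr knockdown samples and at 0, 206 and 1.81 in controls, so nearly all of the control signal came from control replicate 2. Its log2 fold change was 2.37 with an interval from -2.56 to 7.29 by limma, and it had the opposite sign on the recovered reads (-0.58 by edgeR with TMM scaling). Without control replicate 2 it was 4.68 by limma and passed the test, against controls that held 0 and 2 reads. Atg10, Atg12 and Atg16 had log2 fold changes between -0.14 and 0.10, with overlapping groups.

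Control replicate 2 reached at least 1.3 times the mean of the other 2 controls in 9 of 20 Atg genes (45.0%), which were Atg1, Atg2, Atg4b, Atg5, Atg7, Atg8b, Atg13, Atg17 and Atg18b. None of the 27 Vps genes reached that ratio, the highest being 1.21 for Vps8, and over all tested genes the share was 26.6%. The ratio of 1.3 was chosen after the values were seen. Control replicate 2 also differed in ecdysone response genes, of which 17 summed to 80627, 119446 and 103719 in control replicates 1 to 3. Among them Eip78C was at 109, 10218 and 79.4 and Hr4 at 156, 3085 and 83.0, whereas EcR was lowest in control replicate 2, at 8852. A link between these genes and the Atg values was not tested. Without control replicate 2 the median log2 fold change of the Atg genes was -0.08, against -0.22 with it, while that of the Vps genes was -0.19 without it and -0.21 with it. The Atg median also moved with other samples. It was -0.08 without tsr knockdown replicate 2 as well, -0.27 and -0.36 without tsr knockdown replicates 1 and 3, and -0.33 and -0.26 without control replicates 1 and 3. In the tsr knockdown group, replicate 3 was the highest of the 3 in 37 of the 51 genes and replicate 2 the lowest in 32.

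**Figure D2:**
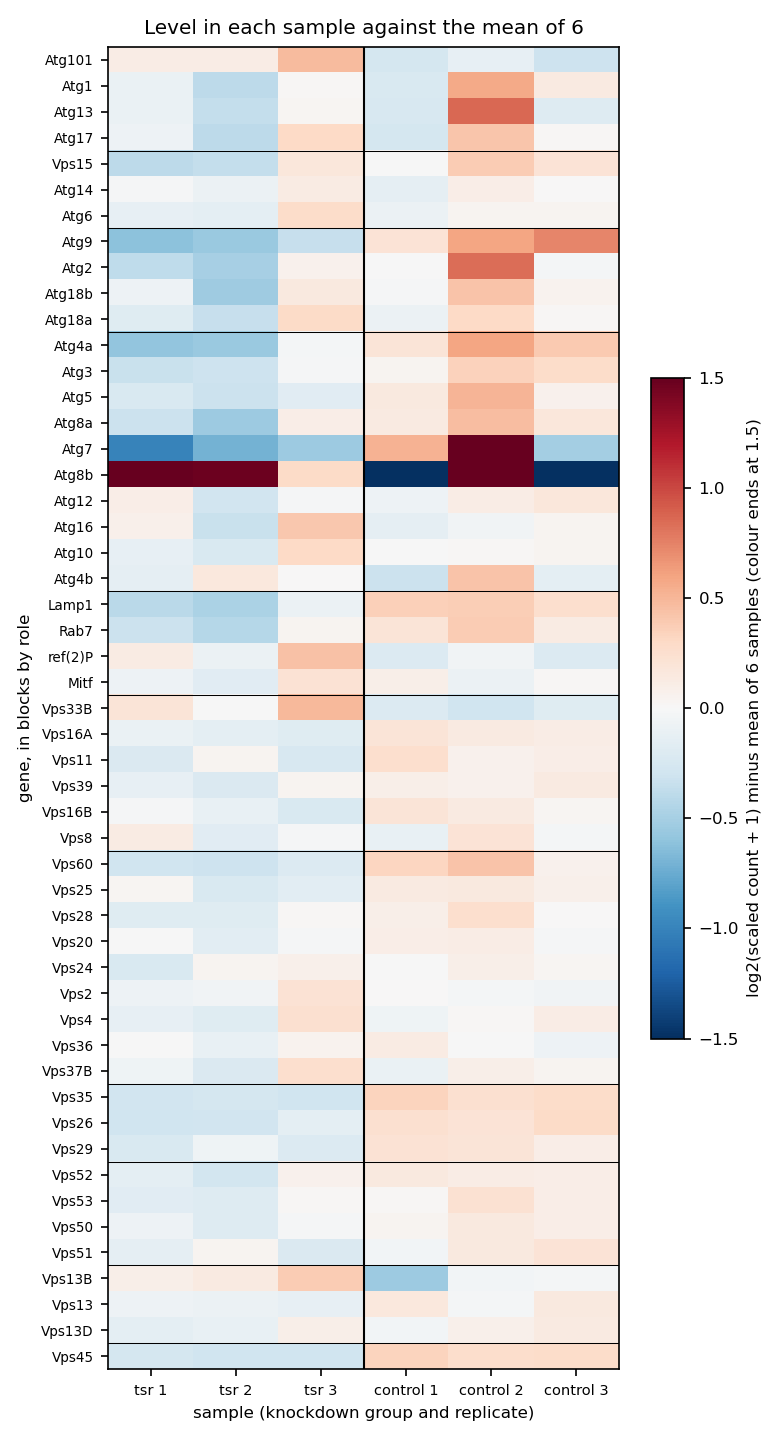
Level of each of the 51 genes in each sample, as log2(scaled count + 1) minus the gene's mean over the 6 samples, with tsr knockdown samples to the left of the line, controls to the right and colour limited to 1.5 in either direction. Red cells in the column of control replicate 2 are concentrated among Atg genes such as Atg7, Atg13 and Atg2, while the rows of Vps35, Vps26 and Vps45 are even within each group.

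At the receiving end of autophagy, Lamp1 is a glycoprotein of the lysosomal membrane, Rab7 the small GTPase of late endosomes, ref(2)P the fly counterpart of the cargo receptor p62, and Mitf the counterpart of the mammalian factor TFEB, which activates lysosomal genes. Lamp1 (FBgn0032949, dm6 chromosome 2L from 21573389 to 21577103) was at 8878, 8474 and 11068 scaled counts in tsr knockdown samples and 15060, 15227 and 14021 in controls. Controls were tightly grouped, and the highest tsr knockdown sample remained below all of them. Lamp1 fell by 0.65 on the log2 scale (SE 0.13, limma adjusted p = 0.0331), a call kept only without tsr knockdown replicate 3 or control replicate 2 among the fits that left out a sample. Rab7 had 6271, 5849 and 8091 in tsr knockdown samples and 8984, 10206 and 8549 in controls. Its groups were separate too, by a narrow gap between tsr knockdown replicate 3 and control replicate 3, and the log2 fold change of -0.47 did not pass by limma (95% interval -0.84 to -0.09, adjusted p = 0.106). DESeq2 on the recovered reads called Rab7 lower (adjusted p = 0.0259). For ref(2)P the values were 9112, 7889 and 11350 in tsr knockdown samples and 7296, 8086 and 7302 in controls. Only tsr knockdown replicate 2 overlapped the controls, and the log2 fold change was 0.31 (95% interval -0.07 to 0.68, adjusted p = 0.257). Mitf was at 2577, 2417 and 3146 in tsr knockdown samples and 2890, 2545 and 2741 in controls, with an interval for its log2 fold change from -0.33 to 0.30. These intervals cover 0 for ref(2)P and Mitf without showing that the groups are alike. The exons of ref(2)P overlap those of a gene on the opposite strand.

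Retromer retrieves receptors from endosomes and consists of Vps26, Vps29 and Vps35. All 3 genes had lower values in every tsr knockdown sample than in any control, as did 19.6% of all tested genes. Vps35 (FBgn0034708, dm6 chromosome 2R from 22185972 to 22189886) was at 2520, 2555 and 2501 scaled counts in tsr knockdown samples and at 3866, 3645 and 3716 in controls. The 3 samples of each group lay close together and the groups far apart, and Vps35 fell by 0.57 on the log2 scale (SE 0.08, limma adjusted p = 0.0150). Vps26 (FBgn0014411, dm6 chromosome X from 1873853 to 1876474) was at 1748, 1755 and 1933 in tsr knockdown samples and at 2536, 2482 and 2613 in controls. It fell by 0.49 (SE 0.09, adjusted p = 0.0281). Both calls were lost without tsr knockdown replicate 1, tsr knockdown replicate 2 or control replicate 3, while the fold changes stayed from -0.59 to -0.54 for Vps35 and from -0.54 to -0.47 for Vps26. Vps29 was at 517, 579 and 525 in tsr knockdown samples and 704, 697 and 651 in controls. Its groups did not overlap either, but its log2 fold change of -0.34 (95% interval -0.63 to -0.05) had an adjusted p-value of 0.123 by limma, while DESeq2 called Vps29 lower. The ratio of Vps26 to Vps35 per kilobase averaged 0.951 ± 0.0634 in tsr knockdown samples and 0.901 ± 0.0312 in controls (SD, n = 3 each) and overlapped between groups. That of Vps29 to Vps35 was 0.692, 0.764 and 0.708 in tsr knockdown samples and 0.614, 0.645 and 0.591 in controls. It did not overlap between groups (two-sided exact permutation p = 0.1). The exons of all 3 genes overlap a gene on the opposite strand in the annotation, and whether the counting used strand is not given in the sources used here.

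**Figure D3:**
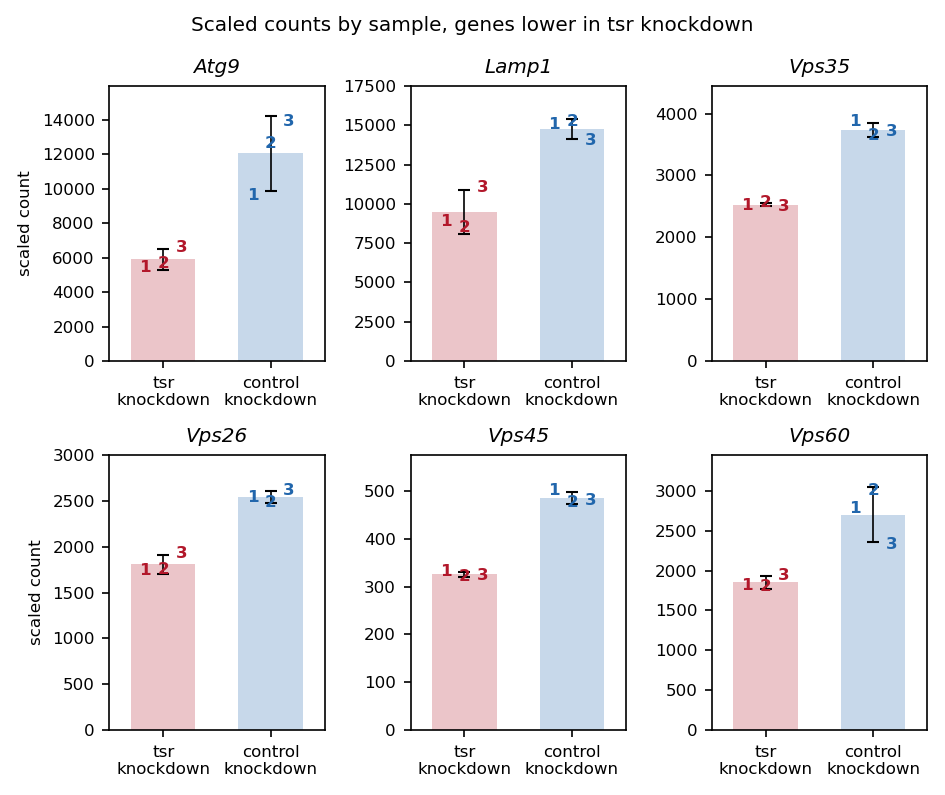
Scaled counts of the 6 genes with an adjusted p-value under 0.05, with numbers marking the replicates, bars the mean and error bars the SD (n = 3 per group); tsr knockdown is left and control knockdown right in each panel. In every panel the 3 tsr knockdown samples lie below the 3 controls, and the separation relative to the spread is widest for Vps35 and Vps45.

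The sorting nexins that work with retromer were in a list of further endosomal genes. Snx1 and Snx6 form the membrane-bending part of the coat, and Snx3 recruits retromer to endosomes. All 3 fell in the tsr knockdown. Snx6 was at 1603, 1718 and 1811 scaled counts in tsr knockdown samples and 2742, 3340 and 2784 in controls, a log2 fold change of -0.78 (limma adjusted p = 0.0161). Snx3 was at 2331, 2323 and 2379 in tsr knockdown samples against 3592, 4120 and 3710 in controls, a change of -0.70 (adjusted p = 0.0129). Snx1 fell by 0.57 (adjusted p = 0.0357). As with retromer, the tsr knockdown samples lay close together for Snx1 and Snx3, and control replicate 2 was the highest control for all 3. Of the 11 genes tested in that list, these 3 and Arl8, a small GTPase of lysosomes, were lower and none was higher (2 above 0 in all, neither with an unadjusted p-value under 0.05), with a list median of -0.32. A negative fold change with an unadjusted p-value under 0.05 was found for 6 of the 11, against 15.1% of all tested genes. Over all tested genes, 7.02% were called lower and 4.58% higher by limma. Snx6 was called in 3 of the 6 fits that left out a sample, Snx3 in 4, Snx1 in 2 and Arl8 in 0, and Arl8 was also not called with upper-quartile scaling (-0.36, adjusted p = 0.0670). Snx6 and Snx1 were not called without tsr knockdown replicate 1, tsr knockdown replicate 2 or control replicate 3, and Snx1 also not without tsr knockdown replicate 3. Snx3 was not called without tsr knockdown replicate 1 or 2.

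The HOPS and CORVET complexes tether late and early endosomes before fusion. None of the 6 genes in this class passed the test by limma, and 2 had an unadjusted p-value under 0.05 in opposite directions. Vps16A, a core subunit, was at 913, 879 and 858 scaled counts in tsr knockdown samples and 1114, 1074 and 1055 in controls, a log2 fold change of -0.29 (limma adjusted p = 0.113). DESeq2 called Vps16A lower (adjusted p = 0.0136). Vps33B, a fusion factor that pairs with Vps16B outside the core complexes, was at 1035, 899 and 1268 in tsr knockdown samples and at 784, 733 and 796 in controls. The tsr knockdown samples were all higher, with a log2 fold change of 0.46 (95% interval 0.08 to 0.83, adjusted p = 0.113), whereas Vps16B had -0.24 (-0.67 to 0.19). The exons of Vps33B and of Vps16B each overlap those of a gene on the opposite strand. Vps11, Vps39 and Vps8 ranged from -0.28 to -0.04. The partners listed as dor (Vps18), car (Vps33A) and lt (Vps41) had 978 ± 60.1, 828 ± 121 and 2647 ± 116 scaled counts in tsr knockdown samples, against 979 ± 73.5, 672 ± 60.1 and 2322 ± 110 in controls (SD, n = 3 each). None of these 3 passed the test or had an unadjusted p-value under 0.05. For car and lt every tsr knockdown sample was above every control, as for 16.8% of all tested genes.

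ESCRT complexes bud receptors into the interior of endosomes and also close membranes elsewhere in the cell. Of the 9 ESCRT genes, Vps60 was lower, and the other 8 had log2 fold changes from -0.24 for Vps25 to 0.05 for Vps2, none with an unadjusted p-value under 0.05. Vps60 (FBgn0036740), of the ESCRT-III class, was at 1811, 1801 and 1940 scaled counts in tsr knockdown samples and 2776, 3000 and 2324 in controls. Control replicate 3 was the lowest control but still above every tsr knockdown sample, and Vps60 fell by 0.54 (SE 0.12, limma adjusted p = 0.0450). It was called in 0 of the 6 fits that left out a sample, and its log2 fold change there ran from -0.64 to -0.46. The ATPase Vps4, which takes ESCRT-III apart, was at 4307 ± 711 in tsr knockdown samples and 4409 ± 271 in controls (SD, n = 3 each). Among 12 further ESCRT genes, Stam fell. It forms the cargo-binding ESCRT-0 complex with Hrs, and was at 1680, 1779 and 1983 in tsr knockdown samples and 3112, 4295 and 2947 in controls, a log2 fold change of -0.91 (adjusted p = 0.0277). Hrs was at 1263, 1105 and 1432 in tsr knockdown samples against 1728, 3665 and 1966 in controls, lower in every tsr knockdown sample but with control replicate 2 far above the other controls (adjusted p = 0.113). None of the 12 was higher by limma, although ALiX was at 7613 ± 1488 in tsr knockdown samples and 5124 ± 286 in controls (SD, n = 3 each) with an unadjusted p-value of 0.0121 and an adjusted one of 0.0738. A negative fold change with an unadjusted p-value under 0.05 was found for 3 of the 12, against 15.1% of all tested genes. Over all tested genes, 7.02% were called lower and 4.58% higher by limma. Stam was not called without any 1 of the tsr knockdown samples or control replicate 3.

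GARP and EARP tether vesicles that return from endosomes to the Golgi or to the cell surface. The 4 genes Vps50, Vps51, Vps52 and Vps53 varied little among themselves, with log2 fold changes from -0.24 to -0.19 and limma adjusted p-values from 0.295 to 0.396, and none had an unadjusted p-value under 0.05. Their GARP partner scat, the fly Vps54, was at 876, 984 and 866 scaled counts in tsr knockdown samples and 1294, 1206 and 1359 in controls. It fell by 0.50 (SE 0.11, adjusted p = 0.0419), and of the fits that left out a sample it kept that call only without control replicate 2. With upper-quartile scaling scat was not called either (-0.41, adjusted p = 0.107). It was named because it was the only called gene among 9 complex partners listed under other symbols, some of which also belong to the other lists. By limma 7.02% of all tested genes were called lower and 11.6% in either direction.

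Vps45 is the Sec1/Munc18-type protein that acts with endosomal syntaxins in membrane fusion. Vps45 (FBgn0261049, dm6 chromosome 3R from 9563924 to 9566092) was at 332, 322 and 323 scaled counts in tsr knockdown samples and 500, 476 and 480 in controls. Both groups were tight, and Vps45 fell by 0.57 (SE 0.13, limma adjusted p = 0.0418). The call was lost without a filter on low values and with upper-quartile scaling, and of the fits that left out a sample it was kept only without control replicate 2, with fold changes from -0.59 to -0.55.

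The VPS13 family consists of very long proteins that move lipid between organelles. None of the 3 genes passed the test by limma or had an unadjusted p-value under 0.05. Vps13B was at 3086, 3178 and 3777 scaled counts in tsr knockdown samples and 1986, 2826 and 2843 in controls. All tsr knockdown samples were higher, and control replicate 1 was the lowest sample, with a log2 fold change of 0.40 (95% interval -0.03 to 0.84, adjusted p = 0.198). Vps13 itself had 10130 ± 168 in tsr knockdown samples and 11548 ± 823 in controls (SD, n = 3 each), a change of -0.19 without overlap (adjusted p = 0.275), and Vps13D had -0.12. The ratio of Vps13B to Vps13 per kilobase was 0.275, 0.285 and 0.347 in tsr knockdown samples and 0.150, 0.244 and 0.217 in controls, again a comparison chosen after the values were seen (two-sided exact permutation p = 0.1). The exons of Vps13 overlap those of genes on the opposite strand.

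Outside the naming, 19 of 22 further autophagy genes tested had negative fold changes. Of the 22, 3 fell, namely Vamp7, Snap29 and CG11975, and none rose by limma, with a list median of -0.30. An unadjusted p-value under 0.05 was found for 1 gene with a positive fold change and 7 with a negative one. Among all tested genes those shares were 14.0% and 15.1%. Over all 11720 tested genes, 7.02% were called lower, 4.58% were called higher and 5403 genes had negative fold changes. Vamp7 and Snap29 encode SNARE proteins that fuse the finished autophagosome with the lysosome. Vamp7 was at 1239, 1165 and 1296 scaled counts in tsr knockdown samples and 2337, 2443 and 2036 in controls, a log2 fold change of -0.88 (adjusted p = 0.0114). Snap29 was at 759, 776 and 655 in tsr knockdown samples and 1286, 2157 and 1330 in controls, a change of -1.08 (adjusted p = 0.0358). Their partner Syx17 was at 606 ± 117 in tsr knockdown samples and 806 ± 186 in controls (SD, n = 3 each), with overlapping groups and an adjusted p-value of 0.309. Vamp7 was called in 5 of the 6 fits that left out a sample, the exception being that without tsr knockdown replicate 1. Snap29 was called in 2, and lost its call without any 1 of the tsr knockdown samples or control replicate 3. CG11975 fell by 0.71 (adjusted p = 0.0441) and kept its call only without tsr knockdown replicate 3. The exons of Vamp7, and those of Cln7 described next, overlap a gene on the opposite strand.

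Of 16 lysosomal hydrolase and membrane genes tested, 2 fell and none rose by limma, against 7.02% lower and 4.58% higher of all tested genes, with a list median of -0.35. An unadjusted p-value under 0.05 was found for 1 gene with a positive fold change and 8 with a negative one. Among all tested genes those shares were 14.0% and 15.1%. Cln3, the fly counterpart of a human gene mutated in a lysosomal storage disease of neurons, was at 23.9, 35.8 and 17.4 scaled counts in tsr knockdown samples and 398, 364 and 386 in controls. The tsr knockdown mean was 6.72% of the control mean, a log2 fold change of -3.90 (95% interval -4.71 to -3.10, adjusted p = 0.00417), and Cln3 was called in all 12 alternatives on 6 samples and all 6 fits that left out a sample. Cln7 was at 631, 649 and 722 in tsr knockdown samples and 2244, 3807 and 1886 in controls, a change of -1.92 (adjusted p = 0.0140) that was not called without tsr knockdown replicate 1 or 2. The major proteases were not called. CtsB1 had 5824 ± 1493 in tsr knockdown samples and 10744 ± 2177 in controls, cathD had 10733 ± 3169 in tsr knockdown samples and 18683 ± 3824 in controls, and Cp1 had 18602 ± 3935 in tsr knockdown samples and 26888 ± 5589 in controls (SD, n = 3 each), with adjusted p-values of 0.0570, 0.0848 and 0.166.

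**Figure D4:**
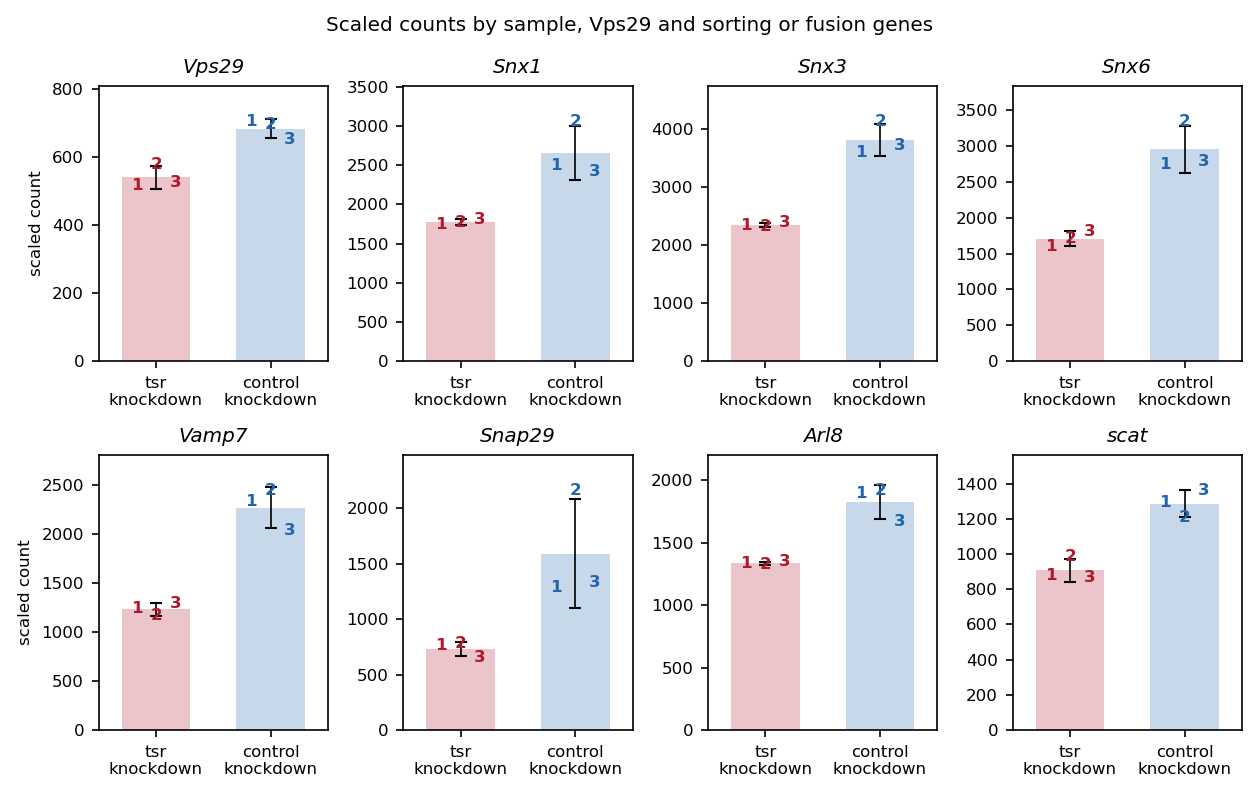
Scaled counts of Vps29 and of 7 genes outside the naming that act in endosomal sorting or fusion, with numbers marking the replicates, bars the mean and error bars the SD (n = 3 per group); tsr knockdown is left and control knockdown right in each panel. The 7 were taken from genes called lower by limma, so their shared direction follows from that choice. The tsr knockdown samples lie below the controls in all 8 panels, and control replicate 2 is the highest sample for Snx1, Snx3, Snx6, Vamp7, Snap29 and Arl8.

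The choice of scaling moved all genes together. With samples rescaled to the 12 muscle genes, the median of the log2 fold changes became -0.89 over all tested genes and -1.16 over the 51. The difference between the medians stayed at -0.27, because 1 factor per sample moves all genes almost alike. On the recovered reads that difference was -0.16 by edgeR with TMM scaling, -0.15 by edgeR with DESeq2 size factors and -0.15 by DESeq2. On the muscle scale 44 of the 51 genes were called lower and none higher, against 41.9% and 1.24% of all tested genes. The positive fold changes of Atg101, Vps33B, Vps13B and ref(2)P turned negative there, although relative to the median of all genes they were 0.40, 0.39, 0.34 and 0.24. The 6 called genes kept their direction and their call there. The share of higher genes among all calls was 39.5% with the authors' scaling, 52.2% with upper-quartile scaling and 2.86% with scaling to muscle genes.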

How the data were processed

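For the 6 samples, 1 table was deposited by the authors. Its values, as deposited, are a signal, and their steps show reads counted in each gene and scaled by a factor for the sample. STAR 2.5.0a, Picard, HTSeq 0.5.3 and the build dm6 are named in the submitters' processing notes, and the labels give Trizol extraction and SMARTer libraries. The annotation release and strand setting are not given in the sources used here. The 4 rows that name no gene held 2.27% to 9.84% of a sample's total each and were left out. Every value was a whole multiple of 1 step per sample (100% within 0.01 of a whole read), so reads were recovered by division, and edgeR with TMM on them called 380 genes higher and 779 lower. Of the 51 genes, 36 had at least 500 reads in every sample, and apart from Atg8b the lowest count was 89. Reads were not counted as molecules, so depth covers counting error only.

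The test was limma 3.58.1 (trend, R 4.3.3) on log2(scaled count + 1) for genes averaging 10 or more, tsr knockdown against control knockdown, all 6 samples, no covariate, Benjamini-Hochberg over all tested genes, threshold 0.05. A fold change on this scale understates that of low genes. The model was tested on simulated data. Single values were compared by two-sided exact permutation tests. Alternatives were pseudocounts of 0.5 and 5, a minimum mean of 50 or no filter, TMM, upper-quartile and muscle-gene scaling, leaving out each sample, a replicate block, array quality weights (whose estimation stopped before it converged), and edgeR 4.0.16 and DESeq2 1.42.0 on the recovered reads. Named genes were tsr, every called gene of the 51, the 2 of each role with the smallest p-values, and 7 fixed genes; outside the 51, up to 3 called genes per list. Others named, such as Arl8 and scat, were chosen after their values were seen. Members and lists were chosen with earlier results of these data known. Listed names were matched by symbol or synonym, and 11 found no gene in the table, while 2 were further names of Cp1 and CtsB1. Exon lengths, overlaps and coordinates are from Ensembl 115 (BDGP6, dm6 coordinates). Of the 51 genes, 19 have an exon overlapping another gene.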

Additional observations from a re-analysis of the deposited data

How the results depend on the processing

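The number of the 51 genes called, 0 higher and 6 lower, changed with several choices. Scaling to muscle genes gave 44 lower and a median of -1.16. DESeq2 called 1 higher and 13 lower, and array quality weights, whose estimation stopped before it converged, 3 higher and 13 lower (27.5% and 16.9% of all tested genes). The replicate block gave 0 lower, with 0.751% of all tested genes lower. Same-numbered samples are separate pools whose deviations from their group's mean had correlations of -0.46, -0.0322 and 0.192, so the numbers were not treated as pairs, and not every sample correlated best with its own number. Leaving out 1 replicate gave 0 to 1 higher, 0 to 5 lower and medians from -0.23 to -0.16. The other alternatives gave 5 to 7 lower and 0 higher, and tsr kept its direction and call in all 18 alternatives.

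Among other named genes, 370 results on 6 samples kept direction and side of the threshold, 20 lost it, 30 passed it and 12 changed sign. With 1 replicate left out, 149 kept both, 60 lost the threshold, 2 passed it and 5 changed sign. The sign changes were Atg14 at -0.0049 (TMM), -0.0060 (edgeR with TMM), -0.0053 (array quality weights) and -0.94 (muscle scaling); Mitf at 0.08 (upper quartile); Atg8b at -0.58, -0.56 and -0.56 (edgeR with TMM, edgeR with DESeq2 size factors, DESeq2); and, with muscle scaling, Atg101 at -0.49, Vps13B at -0.55, Vps33B at -0.50 and ref(2)P at -0.65. Leaving out 1 replicate gave Atg14 from -0.05 to 0.07 and Mitf from -0.12 to 0.07. The cause was not tested. The controls held 0, 184 and 2 reads of Atg8b.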
